A study of Mus musculus with 15 samples.

Results

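The genes described here encode the receptors of 2 growth factor families, EGF and FGF, and 2 ligands of the EGF receptor. They are Egfr, Erbb2, Erbb3 and Erbb4 (EGF receptor family), Hbegf and Areg (ligands) and Fgfr1, Fgfr2, Fgfr3 and Fgfr4 (FGF receptor family). They were taken by symbol from 55416 mouse gene identifiers, all 10 were found, and 9 passed the filter on low counts that 18244 genes passed; Fgfr4 did not. The libraries come from stable lines of neural precursor cells, dividing cells that can form neurons and glia, grown from the hippocampus of female mice aged 6 weeks. In Atf3 cells (1 line, 5 libraries) a piggyBac cassette carries the Atf3 coding sequence behind the doxycycline-responsive TRE3G promoter. In Atf4 cells (1 line, 5 libraries) the cassette carries the Atf4 coding sequence in its place. Control cells (1 line, 5 libraries) have the cassette with neither. The Tet-On 3G transactivator with its SV40 promoter and puromycin resistance are shared by all lines, as are doxycycline at 100 ng/ml, the removal of EGF and FGF from the medium and the harvest 10 h later. With 1 line per construct, effects of the transgene and of the line cannot be told apart. Replicates are not said to be separate cultures, so the p-values cover the spread between these samples only, and that spread may be technical.

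EGF and FGF are the mitogens that keep neural precursor cells dividing in culture, and their removal starts differentiation. Their receptors are membrane tyrosine kinases that pair when a ligand binds and switch on the RAS to ERK kinase cascade, among other routes. HB-EGF (Hbegf) and amphiregulin (Areg) are made as membrane-anchored precursors, which metalloproteases release from the cell surface. FGF binding needs heparan sulfate chains as a coreceptor. Both receptor families are known in the adult hippocampus as regulators of precursor proliferation and of the choice between neuronal and glial fates.

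Library totals were 53697071 to 69561713 counts. Levels are given as CPM, which relates a count to its library's total after TMM scaling, and values with an SE are log2 fold changes, where the SE is approximate, obtained from the change and its F statistic. Atf3 mRNA was at 1771 to 2107 CPM in Atf3 cells, 1.14 to 1.90 CPM in Atf4 cells and 1.67 to 10.99 CPM in control cells. Atf4 mRNA was at 227 to 267 CPM in Atf3 cells, 128 to 188 CPM in Atf4 cells and 76.3 to 92.6 CPM in control cells. It was thus lower in Atf4 cells than in Atf3 cells (-0.71 ± 0.08 SE, edgeR adjusted p = 1.86e-06) and higher than in control cells (0.88 ± 0.08 SE, edgeR adjusted p = 1.91e-08). The summed level of 8 neural precursor markers was 3792 to 3881 CPM in Atf3 cells, 3466 to 3548 CPM in Atf4 cells and 3128 to 3385 CPM in control cells, although Prom1, one of them, stayed under 0.1 CPM on average in every line. These markers did not move together. Of 7 tested, 3 were higher and 1 lower in Atf3 cells, beside 36.8% and 36.3% of all tested genes. In Atf4 cells 4 were higher and 2 lower, beside 31.9% and 29.7%. On the first principal component Atf4 replicate 5 lay at -27.1, the other Atf4 libraries at -14.3 to -1.11 the Atf3 libraries at -53.97 to -41.7 and the control libraries at 55.3 to 63.7.

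Atf3 cells were set against control cells to see how these genes stood when Atf3 was overexpressed during differentiation. Hbegf, Fgfr1 and Fgfr2 rose, whereas Egfr, Erbb3, Erbb4, Areg and Fgfr3 fell. The largest changes were in Erbb4 (-2.34 ± 0.13 SE), Areg (-1.90 ± 0.24 SE) and Hbegf (1.77 ± 0.14 SE). Erbb2, the shared partner of the EGF receptor family, was not called (-0.07 ± 0.04 SE, edgeR adjusted p = 0.0923). In all, 8 of the 9 tested genes were called at an adjusted p under 0.05, beside 73.2% of all 18244 tested genes, so a call by itself sets none of them apart. Of these, 3 were higher and 5 lower, beside 36.8% and 36.3% of all tested genes. A change of at least 2-fold was called in 4 of 9 genes, beside 17.5% of all genes. In 8 of 9 genes the libraries of the lines did not overlap, 3 higher and 5 lower, beside 60.7% of all genes, 32% higher and 28.7% lower. Their median log2 fold change was -0.45, and that of all tested genes -0.02.

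Atf4 cells were set against the same control libraries, so the 2 comparisons are not independent. Here Hbegf, Fgfr1 and Fgfr2 rose, and Egfr, Erbb4, Areg and Fgfr3 fell. Erbb2 (0.02 ± 0.04 SE, edgeR adjusted p = 0.708) and Erbb3 (-0.27 ± 0.21 SE, edgeR adjusted p = 0.271) were not called. The count was 7 of 9, beside 61.6% of all tested genes, with 3 higher (31.9% of all genes) and 4 lower (29.7%). Only Erbb4 and Areg changed at least 2-fold, 2 of 9 genes beside 9.03% of all genes. Lines did not overlap in 6 of 9 genes, 2 higher and 4 lower, beside 47.9% of all genes, 26.1% higher and 21.8% lower. The median was -0.27, and -0.00 over all genes.

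Setting Atf4 cells directly against Atf3 cells asks whether they differ from each other. Hbegf and Fgfr1 were lower in Atf4 cells, and Erbb3, Erbb4 and Egfr were higher there. These are 5 calls of 9, beside 43.6% of all tested genes, with 3 higher (19.7% of all genes) and 2 lower (23.9%). Hbegf was the 1 gene of 9 with at least a 2-fold difference, beside 3.27% of all genes. Lines did not overlap in Hbegf, Erbb3 and Erbb4, which is 3 of 9 genes, 2 higher and 1 lower, beside 25.8% of all, 9.52% higher and 16.3% lower. Areg, Erbb2, Fgfr2 and Fgfr3 did not pass the test, which does not show that the lines are alike in them.

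**Figure D1:**
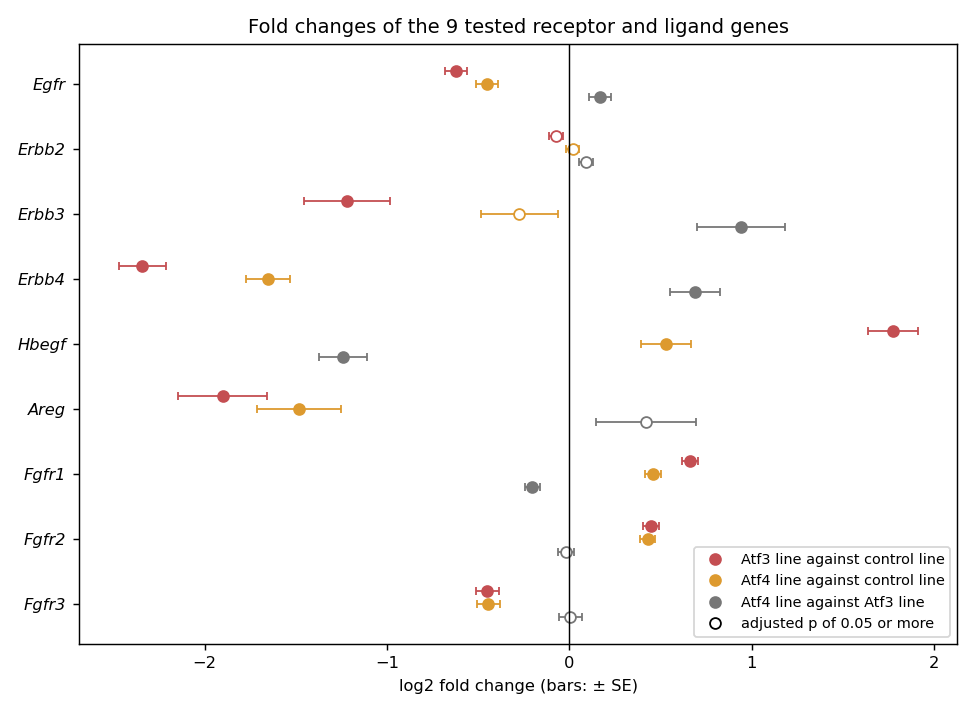
Log2 fold change (x axis, bars ± SE) of the 9 tested receptor and ligand genes in 3 comparisons, with filled points for an edgeR adjusted p under 0.05 and open points otherwise. Hbegf, Fgfr1 and Fgfr2 lie right of 0 against control in both lines, and Erbb4 and Areg lie farthest left, with Erbb4 at -2.34 in Atf3 cells and -1.65 in Atf4 cells.

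Hbegf, the gene of heparin-binding EGF-like growth factor (ENSMUSG00000024486; GRCm38 chromosome 18, 36504927 to 36515805, minus strand, protein coding), had the largest log2 difference between Atf4 and Atf3 cells of the 9 tested genes. It had 52.4, 40.6, 52.9, 45.9 and 45.8 CPM in Atf3 replicates 1 to 5. The Atf4 replicates had 14.7, 17.1, 20.7, 19.6 and 28.6 CPM, and the control replicates 12.7, 16.8, 12.3, 13.1 and 14.5 CPM. Every Atf3 library was above every other library, while the Atf4 and control ranges overlapped. Means were 47.5 ± 5.13 CPM in Atf3 cells, 20.1 ± 5.29 CPM in Atf4 cells and 13.9 ± 1.81 CPM in control cells (SD, n = 5 each). Relative to control cells, Atf3 cells had 3.42-fold more Hbegf (log2 value 1.77 ± 0.14 SE, adjusted p = 9.31e-10 by the quasi-likelihood test of edgeR). The rise in Atf4 cells was 1.44-fold (0.53 ± 0.14 SE, edgeR adjusted p = 0.00237). Without Atf4 replicate 5, the highest Atf4 library, it was 0.36 (edgeR adjusted p = 0.00565, with 3.48e-05 to 0.0174 over all alternatives). Hbegf was lower in Atf4 cells than in Atf3 cells (-1.24 ± 0.13 SE, edgeR adjusted p = 1.37e-06).

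Areg, the gene of amphiregulin (ENSMUSG00000029378; GRCm38 chromosome 5, 91139599 to 91148432, plus strand, protein coding), moved the other way from a low level. Atf3 replicates 1 to 5 had 0.148, 0.255, 0.510, 0.577 and 0.390 CPM, Atf4 replicates 0.648, 0.337, 0.538, 0.508 and 0.503 CPM, and control replicates 1.32, 1.61, 1.16, 1.32 and 1.65 CPM. All control libraries were above all others, and the Atf3 and Atf4 ranges overlapped. These levels rest on 8 to 31 counts per Atf3 library, 24 to 42 per Atf4 library and 66 to 111 per control library. Areg fell by 1.90 ± 0.24 SE on the log2 scale in Atf3 cells (edgeR adjusted p = 1.1e-06) and by 1.48 ± 0.23 SE in Atf4 cells (edgeR adjusted p = 1.88e-05). The difference between Atf4 and Atf3 cells was 0.42 ± 0.27 SE (edgeR adjusted p = 0.222). Both ligand genes therefore changed in each line, in opposite directions, and Hbegf had the higher level per length in every line.

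Promoters are shown for the ligand and the receptors of the EGF family with the clearest falls, Areg, Erbb4 and Egfr, because ATF and CREB family proteins are known to bind the cyclic AMP response element (CRE) and related sites. Sequences are from RefSeq (GRCm38.p6), which listed a promoter for 7 of the 10 genes, and run 5′ to 3′ on the gene's strand over 300 bases, 250 before the start of the transcript and 50 after. They were searched on both strands for the CRE palindrome TGACGTCA, for the AP-1 site TGANTCA and for the core TGATGNAA of sites where ATF4 binds with a C/EBP partner. None of these motifs contains another. Capitals mark a match, and Areg at chr5:91139349-91139648 (plus strand) has 1, the CRE, which begins 61 bases before the start. Neither Erbb4 at chr1:69108010-69108309 (minus strand) nor Egfr at chr11:16751953-16752252 (plus strand) holds any of the motifs in this window, and nor do the windows of Erbb2, Fgfr2, Fgfr3 and Fgfr4.
Areg: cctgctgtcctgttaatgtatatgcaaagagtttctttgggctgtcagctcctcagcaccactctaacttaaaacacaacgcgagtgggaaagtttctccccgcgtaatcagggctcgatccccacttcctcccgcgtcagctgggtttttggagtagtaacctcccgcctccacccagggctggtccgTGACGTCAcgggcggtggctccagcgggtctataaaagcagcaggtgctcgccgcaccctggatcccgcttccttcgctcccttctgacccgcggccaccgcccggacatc
Erbb4: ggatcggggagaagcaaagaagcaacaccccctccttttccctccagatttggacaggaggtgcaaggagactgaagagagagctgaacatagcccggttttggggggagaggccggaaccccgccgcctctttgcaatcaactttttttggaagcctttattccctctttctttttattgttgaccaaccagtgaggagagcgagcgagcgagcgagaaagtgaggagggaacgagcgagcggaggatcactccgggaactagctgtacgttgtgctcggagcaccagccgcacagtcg
Egfr: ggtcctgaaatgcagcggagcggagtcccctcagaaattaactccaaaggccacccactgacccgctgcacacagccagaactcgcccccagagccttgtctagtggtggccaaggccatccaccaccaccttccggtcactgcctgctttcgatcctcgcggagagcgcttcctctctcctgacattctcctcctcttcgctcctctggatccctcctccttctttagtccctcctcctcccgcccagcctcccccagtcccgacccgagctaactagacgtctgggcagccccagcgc
Among 32851 promoters of this length in the table, 1.79% hold the CRE, 7.81% the AP-1 site and 3.97% the third motif. A match describes letters in the window and does not show that a factor binds there.

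Within the EGF receptor family the changes were unequal. Egfr, the receptor of EGF, HB-EGF and amphiregulin (ENSMUSG00000020122; GRCm38 chromosome 11, 16752203 to 16918158, plus strand), had the highest level per length of the 4 receptors in every line. It had 207, 236, 244, 213 and 249.7 CPM in Atf3 replicates 1 to 5, 247, 259, 229.9, 284 and 273 CPM in Atf4 replicates and 346, 375, 370.5, 343 and 336 CPM in control replicates. Every control library lay above every library of the other lines, which overlapped each other. The fall was -0.62 ± 0.06 SE in Atf3 cells (edgeR adjusted p = 2.05e-08) and -0.45 ± 0.06 SE in Atf4 cells (edgeR adjusted p = 2.37e-06). Egfr was slightly higher in Atf4 cells than in Atf3 cells (0.17 ± 0.06 SE, edgeR adjusted p = 0.0271). That last call ended without Atf3 replicate 1, Atf3 replicate 4 or Atf4 replicate 4 (edgeR adjusted p = 0.0854, 0.0749 and 0.0735, within a range of 0.00706 to 0.0854 for all alternatives).

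Erbb2 (ENSMUSG00000062312; GRCm38 chromosome 11, 98412470 to 98437716, plus strand) encodes the family member with no known ligand of its own, which pairs with the others. Its level was 34.5 to 37.7 CPM in Atf3 cells, 36.3 to 39.9 CPM in Atf4 cells and 35.7 to 38.7 CPM in control cells. These ranges overlapped in all comparisons. Over all alternatives the log2 fold change stayed between -0.13 and -0.04 in Atf3 cells, though its adjusted p ran over 0.00265 to 0.464 and fell under 0.05 in 8 of 23 alternatives.

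Erbb4 (ENSMUSG00000062209; GRCm38 chromosome 1, 68032186 to 69108059, minus strand), a receptor of neuregulins that also binds HB-EGF, had the largest relative fall of the 9 genes. Atf3 replicates 1 to 5 had 0.832, 1.11, 1.23, 1.28 and 0.925 CPM, Atf4 replicates 2.13, 1.95, 1.32, 1.61 and 1.62 CPM and control replicates 5.35, 5.80, 5.59, 5.68 and 4.91 CPM. The lines formed 3 separate ranges, lowest in Atf3 and highest in control. The fall was 5.07-fold in Atf3 cells (-2.34 ± 0.13 SE, edgeR adjusted p = 1.08e-11) and 3.15-fold in Atf4 cells (-1.65 ± 0.12 SE, edgeR adjusted p = 1.21e-09). Atf4 cells exceeded Atf3 cells by 0.69 ± 0.14 SE (edgeR adjusted p = 6.39e-04).

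Erbb3 (ENSMUSG00000018166; GRCm38 chromosome 10, 128567523 to 128589652, minus strand), a neuregulin receptor with a weak kinase that signals through its partners, was near the limit of detection. It had 9 to 16 counts per library in Atf3 cells, 20 to 26 in Atf4 cells and 22 to 38 in control cells, or means of 0.201 ± 0.0613, 0.387 ± 0.0476 and 0.469 ± 0.113 CPM in that order (SD, n = 5 each). All Atf3 libraries lay below all others, while Atf4 and control overlapped. The fall in Atf3 cells was -1.22 ± 0.24 SE (edgeR adjusted p = 1.37e-04), and Atf4 cells were higher than Atf3 cells by 0.94 ± 0.24 SE (edgeR adjusted p = 0.00402).

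Weakly expressed genes tended to be lower in both lines, and Erbb3, Erbb4 and Areg are among them. Among the 4587 tested genes under 1 CPM on average, such as Erbb3 and Areg, the median log2 fold change was -0.41 in Atf3 cells and -0.20 in Atf4 cells. In Atf3 cells 24% of these genes were called at least 2-fold lower. For 3706 genes at 1 to 10 CPM, such as Erbb4, the medians were -0.17 and -0.07, and for 9951 genes at 10 CPM or more they were 0.12 and 0.06. The part of this trend in the falls of these genes was not tested.

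Of the 8 markers of the oligodendrocyte lineage, in which Erbb3 is known to be expressed, all were lower in Atf3 cells, beside 36.3% of all tested genes. In Atf4 cells, where Erbb3 was not called, 7 of 8 were lower, beside 29.7%. Their summed level was 2921 to 3733 CPM in Atf3 cells, 3474 to 4047 CPM in Atf4 cells and 3845 to 4417 CPM in control cells. Most of this sum was Olig1 and Olig2, and Olig1 was not called in Atf4 cells (0.00 ± 0.06 SE, edgeR adjusted p = 0.982). Sox10, the transcription factor that defines the committed lineage, was at 0.0399 ± 0.0427 CPM in Atf3 cells, 0.0712 ± 0.0494 CPM in Atf4 cells and 0.270 ± 0.0868 CPM in control cells. It was near the limit of detection, at 0 to 0.112 CPM in Atf3 libraries and 0.0180 to 0.139 CPM in Atf4 libraries. The markers Gpr17 and Mbp were low too, at 0.00689 and 0.0976 CPM on average in Atf3 cells and 0.436 and 0.486 CPM in control cells. Among tested genes under 1 CPM on average, 39.8% were lower in Atf3 cells and 26.2% in Atf4 cells. Of 6 tested neuronal markers 1 was higher and 3 lower in Atf3 cells (36.8% and 36.3% of all tested genes), and 2 higher and 3 lower in Atf4 cells (31.9% and 29.7%), and Stmn2 was under 0.1 CPM in all lines. Of 6 tested astrocyte markers 2 were higher and 3 lower in Atf3 cells, and 2 higher and 4 lower in Atf4 cells, beside the same shares. Of 4 tested Schwann cell markers 2 were higher and 1 lower in each line, beside the same shares. The lower one was Mbp, which is also among the 8 oligodendrocyte lineage markers. The summed level of the Schwann cell markers, mostly Pou3f1, was 268 to 352 CPM in Atf3 cells, 97.8 to 214 CPM in Atf4 cells and 45.5 to 89.7 CPM in control cells. The summed level of 5 microglia markers was at most 1.47 CPM in any library, with Aif1, Cx3cr1 and Csf1r under 0.1 CPM. The number of cells of a type and the RNA per cell cannot be told apart in these bulk samples. The part of any of these marker groups in the falls was not tested.

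**Figure D2:**
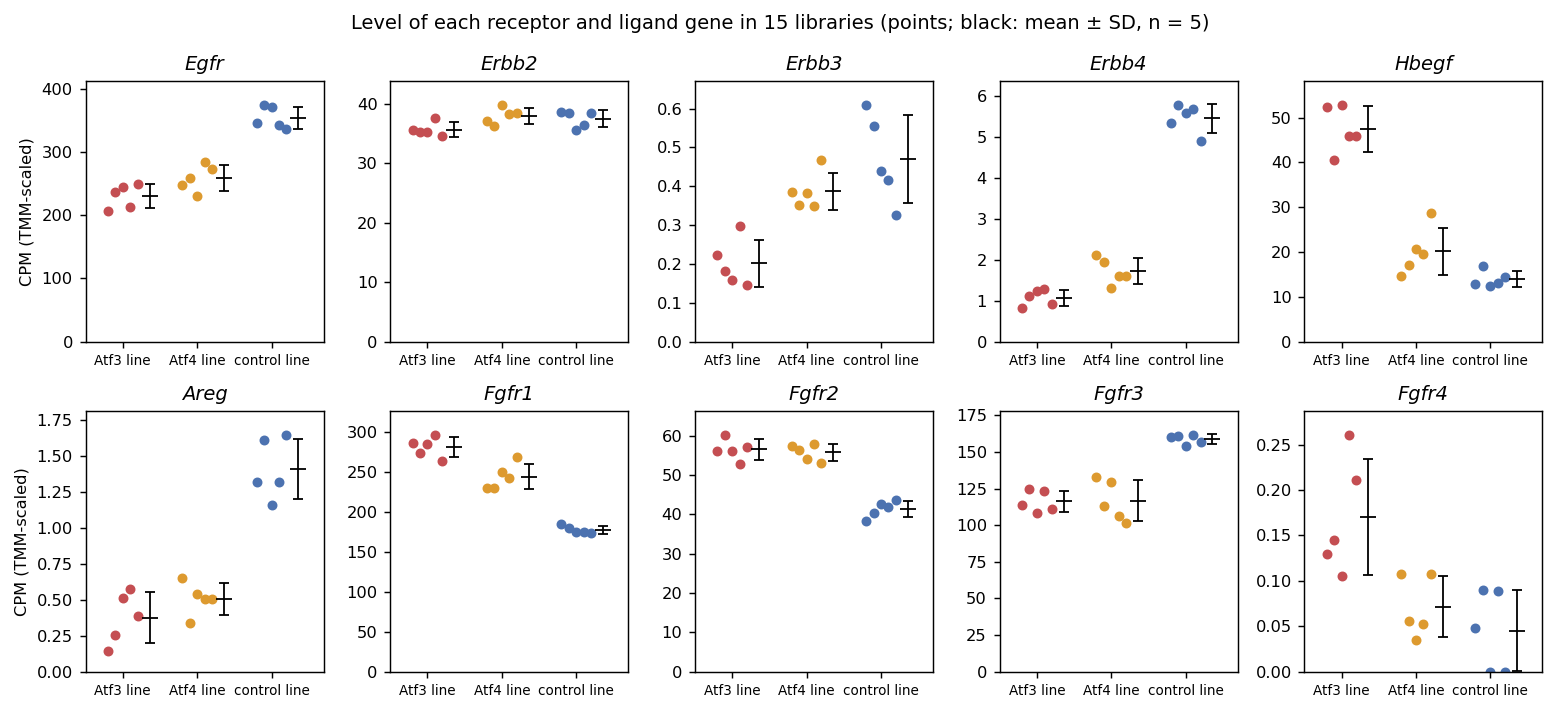
CPM (y axis, TMM-scaled, from 0) of each of the 10 genes in the Atf3, Atf4 and control lines, 1 point per library, with the mean ± SD in black (n = 5). Erbb4 forms 3 separate ranges, Hbegf is at 40.6 to 52.9 CPM in Atf3 cells with Atf4 replicate 5 the next highest at 28.6, and Erbb2 overlaps in all lines.

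Among the FGF receptors, Fgfr1 and Fgfr2 were higher and Fgfr3 was lower in both overexpression lines. Fgfr1 (ENSMUSG00000031565; GRCm38 chromosome 8, 25513654 to 25575718, plus strand), a main receptor of FGF2, had 286, 274, 285, 296 and 264 CPM in Atf3 replicates 1 to 5. It had 230.4, 229, 250.3, 242 and 268 CPM in Atf4 replicates and 184, 180.1, 175, 175 and 173 CPM in control replicates. All Atf3 and Atf4 libraries exceeded all control libraries, and the ranges of both overexpression lines overlapped through Atf4 replicate 5. The rise was 0.66 ± 0.04 SE in Atf3 cells (edgeR adjusted p = 8.48e-11) and 0.46 ± 0.04 SE in Atf4 cells (edgeR adjusted p = 2.86e-08). Atf4 cells were lower than Atf3 cells by a log2 difference of -0.20 ± 0.04 SE (edgeR adjusted p = 8.37e-04).

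Fgfr2 (ENSMUSG00000030849; GRCm38 chromosome 7, 130162451 to 133123350, minus strand) encodes a related receptor with splice forms that prefer different FGFs, and gene counts do not separate these forms. It was at 52.7 to 60.2 CPM in Atf3 cells, 53.1 to 57.96 CPM in Atf4 cells and 38.3 to 43.6 CPM in control cells. Both lines lay wholly above control, by 0.45 ± 0.04 SE in Atf3 cells (edgeR adjusted p = 2.1e-08) and 0.43 ± 0.04 SE in Atf4 cells (edgeR adjusted p = 7.37e-08). The difference between the Atf4 and Atf3 lines was -0.02 ± 0.04 SE (edgeR adjusted p = 0.757).

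Fgfr3 (ENSMUSG00000054252; GRCm38 chromosome 5, 33721674 to 33737068, plus strand), a receptor known from neural precursors and astrocytes, had 114, 125, 108, 123 and 111 CPM in Atf3 replicates 1 to 5. Atf4 replicates had 133, 113, 129, 106 and 101 CPM, and control replicates 160.4, 161, 154, 162 and 157 CPM. Control libraries were above all others, and the Atf3 range lay within the Atf4 range. The fall was -0.45 ± 0.06 SE in Atf3 cells (edgeR adjusted p = 3.41e-06) and -0.44 ± 0.06 SE in Atf4 cells (edgeR adjusted p = 6.24e-06). The log2 difference between the Atf4 and Atf3 lines was 0.00 ± 0.06 SE (edgeR adjusted p = 0.959). Of the exon bases of Fgfr3, 13.9% also lie in G630022F23Rik; the library kit does not mark strand, and reads of both genes cannot be told apart there.

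Fgfr4 (ENSMUSG00000005320; GRCm38 chromosome 13, 55152640 to 55168759, plus strand), the family member best known from liver and muscle, was barely detected. It had 6 to 14 counts per library in Atf3 cells, 2 to 7 in Atf4 cells and 0 to 6 in control cells, where 2 libraries had none. A count of 0 allows up to 3 counts per library, 0.0421 to 0.0558 CPM, and covers counting error only. Each Atf3 library exceeded each control library in CPM, although the lowest Atf3 count and the highest control count were both 6. With no filter on low counts Fgfr4 was higher in Atf3 cells (1.90 ± 0.56 SE, edgeR adjusted p = 0.00561 over 35525 genes), but so few counts give little weight to the size of that change.

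Per kilobase of annotated exon, which allows genes to be compared, the order of the receptors was not the same in all lines. Fgfr1 led in Atf3 cells with 28.5 ± 1.25 CPM per kb, followed by Egfr (20.3 ± 1.67) and Fgfr3 (16.2 ± 1.01), with no overlap of neighbours (SD, n = 5 each). In Atf4 cells Fgfr1 (24.7 ± 1.63 CPM per kb) and Egfr (22.8 ± 1.87) overlapped at the top, above Fgfr3 (16.3 ± 1.95). In control cells Egfr led with 31.3 ± 1.54 CPM per kb, then Fgfr3 (22.2 ± 0.451) and Fgfr1 (17.97 ± 0.473), again with no overlap of neighbours. Dividing by the longest transcript instead put Fgfr1 first in both overexpression lines and Fgfr3 first in control. Control levels were then 37.4 ± 0.760 CPM per kb for Fgfr3, 35.2 ± 0.926 for Fgfr1 and 34.7 ± 1.71 for Egfr. In Atf3 cells Fgfr3 (27.4 ± 1.70 CPM per kb) then stood above Egfr (22.5 ± 1.85). In Atf4 cells Fgfr3 (27.5 ± 3.30 CPM per kb) stood above Egfr (25.3 ± 2.08) on average. The order of these receptors thus depends on the length used in every line.

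The remaining genes lay below these leaders in every line, with no overlap per kilobase of exon. Hbegf stood at 9.83 ± 1.06 CPM per kb in Atf3 cells, above Erbb2 (6.85 ± 0.228) and Fgfr2 (5.47 ± 0.258). In Atf4 cells Hbegf (4.16 ± 1.09 CPM per kb) overlapped Fgfr2 (5.40 ± 0.208), and in control cells Hbegf (2.87 ± 0.374) lay below Fgfr2 (4.01 ± 0.200). Areg, Erbb4, Erbb3 and Fgfr4 were at most 1.16 CPM per kb on average in any line. Among them Fgfr4 overlapped both Erbb4 and Erbb3 in Atf3 cells, whereas Erbb4 and Erbb3 did not overlap each other. By the longest transcript Fgfr2 (12.8 ± 0.601, 12.6 ± 0.486 and 9.35 ± 0.466 CPM per kb in Atf3, Atf4 and control cells) stood above Erbb2 (7.12 ± 0.237, 7.58 ± 0.273 and 7.49 ± 0.276) in every line. Hbegf was then at 16.4 ± 1.78 CPM per kb in Atf3 cells and 6.96 ± 1.83 CPM per kb in Atf4 cells, so these places depend on the length too.

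Shares of a family's summed level per kb describe the mix of receptors in each line. Fgfr1 made up 56.7 ± 1.55% of the FGF receptor sum in Atf3 cells, 53.3 ± 3.47% in Atf4 cells and 40.7 ± 0.674% in control cells. Fgfr3 made up 32.3 ± 1.30%, 35.0 ± 3.41% and 50.2 ± 0.433% in the same order. Egfr made up 74.4 ± 2.10% of the EGF receptor sum in Atf3 cells, 75.2 ± 1.85% in Atf4 cells and 80.2 ± 1.02% in control cells, and nearly all of the rest was Erbb2. The summed level of the EGF receptors was 27.3 ± 1.51 CPM per kb in Atf3 cells, 30.3 ± 1.82 in Atf4 cells and 38.98 ± 1.52 in control cells. For the FGF receptors the sum was 50.2 ± 1.69, 46.4 ± 1.71 and 44.2 ± 0.647 CPM per kb in that order. These shares depend on the division by length. In plain CPM Fgfr1 made up 61.9%, 58.6% and 47.0% in Atf3, Atf4 and control cells and Fgfr3 25.6%, 27.98% and 42.0%, which puts Fgfr1 above Fgfr3 in control cells too. The higher share of Fgfr1 and the lower share of Fgfr3 in both overexpression lines than in control cells were seen either way. The sums and shares are described without a test.

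**Figure D3:**
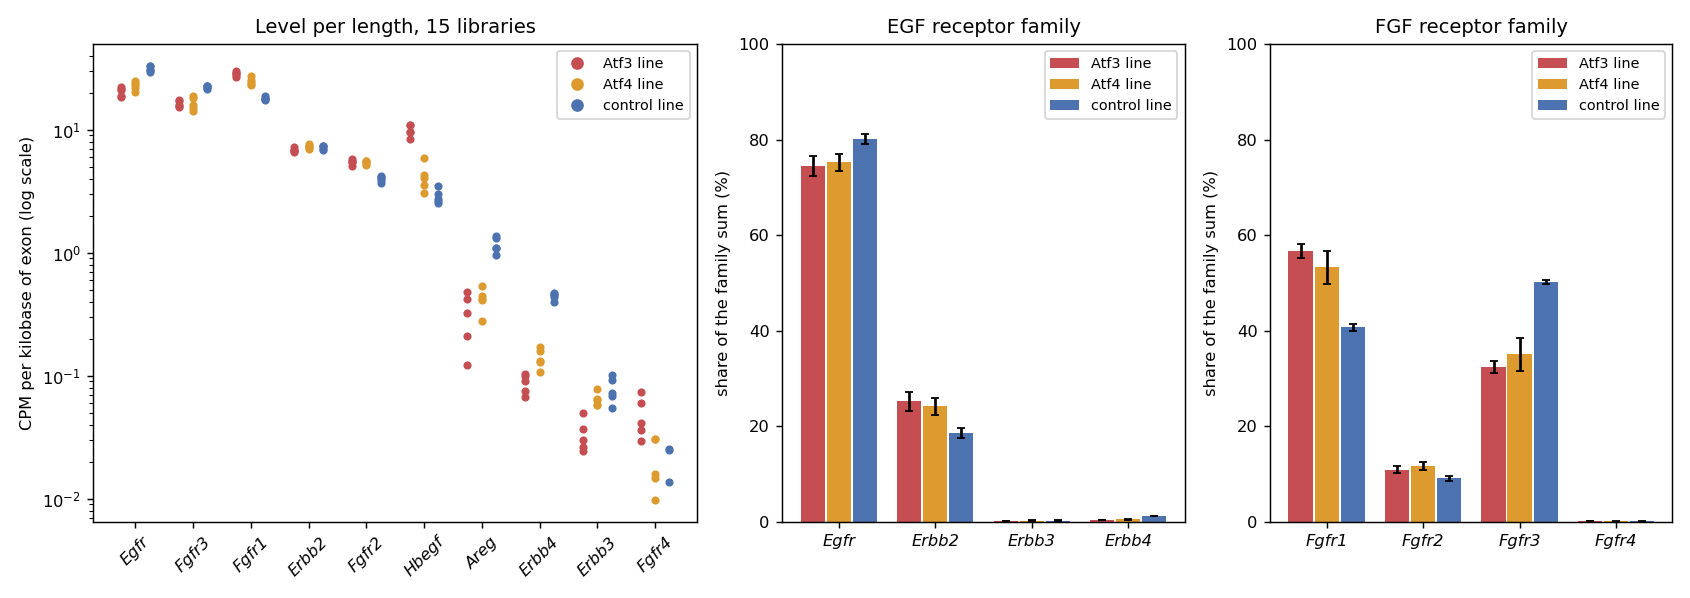
Left: CPM per kilobase of exon (log axis) of the 10 genes in each library, with the Fgfr4 libraries at 0 counts left out; middle and right: mean share (bars from 0, ± SD, n = 5) of each receptor in the sum of its family, for the Atf3, Atf4 and control lines. Fgfr1 holds 56.7% of the FGF receptor sum in Atf3 cells and 40.7% in control cells, while Fgfr3 holds 32.3% and 50.2%, and in plain CPM the control order of these receptors is the reverse.

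Genes outside the families were ranked by how closely they followed these patterns over the 15 libraries. Likeness was measured as the root mean square difference of log2 CPM after each gene's mean was taken off, and the closest protein-coding genes were kept. Closest to Hbegf were Cdon (0.14) and Adam19 (0.14), closest to Egfr were Pcnx (0.04) and Sox6 (0.05), and closest to Erbb4 were Adamtsl1 (0.16) and Crebrf (0.19). Fgfr1 was closest to Ppm1f (0.04) and Mgat2 (0.04), Fgfr2 to Rpp30 and Ccng1 (0.05 each), and Fgfr3 to Idnk (0.05) and Tmem164 (0.06). For Areg (Rps6ka6, 0.37) and Erbb3 (Spata2l and Brdt, 0.25 each) the distance was larger. Erbb2, which varied little, was closest to Ckap4 and Pofut2 (0.04 each). These distances are not scaled to a gene's own spread. The SD of log2 CPM over the libraries was 0.95 for Areg, 0.56 for Erbb3, 0.29 for Egfr and 0.06 for Erbb2.

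The other ligands of these receptors changed in both directions in Atf3 cells. Of 9 further EGF family ligands 7 were tested; 2 were higher and 4 lower in Atf3 cells (median -0.29), and 2 higher and none lower in Atf4 cells (median -0.01). Over all tested genes 36.8% were higher and 36.3% lower in Atf3 cells, and 31.9% higher and 29.7% lower in Atf4 cells, the shares against which this and the following counts stand. The neuregulin gene Nrg2, a ligand gene for Erbb3 and Erbb4, was at 10.1 ± 0.587 CPM in Atf3 cells, 9.33 ± 0.650 CPM in Atf4 cells and 6.15 ± 0.425 CPM in control cells and rose in both lines (0.72 ± 0.07 SE and 0.60 ± 0.06 SE). Nrg1 rose as well (0.75 ± 0.15 SE in Atf3 cells, 0.37 ± 0.15 SE in Atf4 cells), although the call in Atf4 cells, at an edgeR adjusted p of 0.0384, ended under 9 alternatives, with an adjusted p of up to 0.108. Betacellulin (Btc) and Egf itself fell in Atf3 cells (-0.52 ± 0.15 SE and -0.42 ± 0.16 SE), and the call of Egf ended without Atf3 replicate 1 or control replicate 2 (edgeR adjusted p of up to 0.0741).

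Of 18 secreted FGF genes 8 were tested, of which 3 rose and 1 fell in Atf3 cells (median 0.13), and 2 rose and 1 fell in Atf4 cells (median 0.26). Calls in either direction were thus 4 of 8 and 3 of 8, beside 73.2% and 61.6% of all tested genes. Fgf1, encoding a ligand that binds all FGF receptors, changed most among those named. It was at 98.2 to 122 CPM in Atf3 cells, 48.3 to 78.3 CPM in Atf4 cells and 22.8 to 28.6 CPM in control cells, 3 ranges that did not overlap. Fgf1 rose by 2.04 ± 0.11 SE in Atf3 cells (edgeR adjusted p = 5.68e-12) and by 1.24 ± 0.11 SE in Atf4 cells (edgeR adjusted p = 9.51e-09). Fgf9 rose from a low level (0.51 ± 0.12 SE in Atf3 cells, 0.59 ± 0.12 SE in Atf4 cells). Fgf2, the form of FGF supplied in the growth medium, was at 2.72 ± 0.467 CPM in Atf3 cells, 3.12 ± 0.471 CPM in Atf4 cells and 3.04 ± 0.411 CPM in control cells and was not called in either (edgeR adjusted p = 0.295 and 0.809). Its exons share 9.44% of their bases with Nudt6.

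Of 6 tested genes that release ligands 2 rose and 1 fell in each line, 3 calls of 6 beside 73.2% of all tested genes in Atf3 cells and 61.6% in Atf4 cells. The metalloprotease gene Adam12, whose product is known to cleave HB-EGF, was at 455 ± 24.0 CPM in Atf3 cells, 488 ± 72.5 CPM in Atf4 cells and 136 ± 10.7 CPM in control cells (1.74 ± 0.08 SE and 1.84 ± 0.08 SE). Rhbdf1, encoding the ADAM17 cofactor iRhom1, rose in Atf3 cells (0.97 ± 0.08 SE) and was not called in Atf4 cells (0.01, edgeR adjusted p = 0.912). Adam8 was at 3.17 ± 0.585 CPM in Atf3 cells, 3.68 ± 0.349 CPM in Atf4 cells and 2.78 ± 0.295 CPM in control cells and rose in Atf4 cells. Adam9 fell in both (-0.50 ± 0.04 SE in each). The main sheddases Adam17 and Adam10 were not called in Atf3 cells (0.04 in each, edgeR adjusted p = 0.235 and 0.356) or in Atf4 cells (0.07 and 0.06, edgeR adjusted p = 0.0540 and 0.175).

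Among 21 tested coreceptor and heparan sulfate genes 10 rose and 8 fell in Atf3 cells (median -0.09), and 11 rose and 5 fell in Atf4 cells (median 0.16), beside 36.8% and 36.3% of all tested genes in Atf3 cells and 31.9% and 29.7% in Atf4 cells. The heparan sulfate proteoglycan genes themselves went in both directions. Gpc4 was at 156 ± 11.4 CPM in Atf3 cells, 107 ± 11.3 CPM in Atf4 cells and 49.1 ± 3.11 CPM in control cells, and Sdc1 rose by 1.11 ± 0.04 SE and 1.12 ± 0.04 SE. Gpc1 fell to 308 ± 30.5 CPM in Atf3 cells and 419 ± 59.3 CPM in Atf4 cells, against 733 ± 19.0 CPM in control cells, with 18.9% of its exon bases also in Ankmy1. Flrt2, encoding a membrane partner of FGF receptors, fell by 1.11 ± 0.09 SE in Atf3 cells and by 0.68 ± 0.09 SE in Atf4 cells.

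Inside the cell, the adaptor and RAS to ERK genes changed in both directions. Of 21 tested, 11 rose and 7 fell in Atf3 cells (median 0.13), and 7 rose and 8 fell in Atf4 cells (median -0.01). The shares of all tested genes are 36.8% higher and 36.3% lower in Atf3 cells, and 31.9% and 29.7% in Atf4 cells. Hras rose by 0.77 ± 0.05 SE and 0.56 ± 0.05 SE in the Atf3 and Atf4 lines, and the kinase gene Map2k2 (MEK2) by 0.29 ± 0.04 SE in Atf4 cells. The adaptor gene Gab2 rose by 0.56 ± 0.06 SE in Atf3 cells. Gab1, an adaptor of EGF receptor signalling, fell by 0.78 ± 0.07 SE and 0.52 ± 0.07 SE, and the kinase gene Braf by 0.65 ± 0.09 SE and 0.37 ± 0.09 SE.

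Of 11 tested genes whose products restrain the receptors, 3 rose and 7 fell in Atf3 cells (median -0.31), beside 36.8% and 36.3% of all tested genes. In Atf4 cells 2 rose and 7 fell (median -0.20), beside 31.9% and 29.7% of all tested genes. Il17rd, encoding the FGF signalling inhibitor SEF, was at 22.0 ± 2.46 CPM in Atf3 cells, 31.5 ± 2.18 CPM in Atf4 cells and 63.4 ± 5.29 CPM in control cells. The ubiquitin ligase gene Cblb fell by 0.83 ± 0.07 SE and 0.60 ± 0.07 SE. Errfi1, whose product MIG6 blocks the EGF receptor kinase, fell by 0.71 in Atf3 cells and by 0.39 in Atf4 cells on the log2 scale. Stub1 and Socs5 rose in both lines (0.59 ± 0.05 SE and 0.50 ± 0.06 SE in Atf3 cells, 0.54 ± 0.05 SE and 0.23 ± 0.06 SE in Atf4 cells), and Stub1 is uncertain because 42.3% of its exon bases also lie in Jmjd8.

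All 8 tested genes of the ERK feedback list rose in Atf3 cells (median 1.51), beside 36.8% of all tested genes. In Atf4 cells 4 rose and 1 fell (median 0.35), beside 31.9% and 29.7% of all tested genes. The list, chosen with earlier results of these data known, does not include the inhibitor genes Il17rd and Errfi1. Both were counted above among the genes that restrain the receptors, and both fell in each line. The phosphatase gene Dusp6, a readout of ERK activity, was at 389 to 563 CPM in Atf3 cells, 58.9 to 217 CPM in Atf4 cells and 44.1 to 137 CPM in control cells, and it was called in Atf3 cells (2.30 ± 0.31 SE) but not in Atf4 cells (edgeR adjusted p = 0.588). The ETS factor genes Etv4 (2.23 ± 0.10 SE in Atf3 cells, 1.61 ± 0.10 SE in Atf4 cells) and Etv5 (1.42 ± 0.06 SE and 0.88 ± 0.06 SE) rose in both. Spry2 was the gene of the ERK feedback list that fell in Atf4 cells (-0.33 ± 0.11 SE, edgeR adjusted p = 0.0168). Leaving out control replicate 5, or control replicates 4 and 5 together, ended that call (edgeR adjusted p = 0.0522 and 0.119). Atf4 replicate 5 had the highest level of the Atf4 libraries for Dusp6, Spry2, Etv4, Etv5, Adam12, Fgf1, Fgfr1 and Hbegf. It also had the most Atf4 mRNA of them, 188 CPM beside 128 to 154 CPM in the others. A link between these levels was not tested. Without Atf4 replicate 5 the change of Hbegf in Atf4 cells was 0.36 on the log2 scale.

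**Figure D4:**
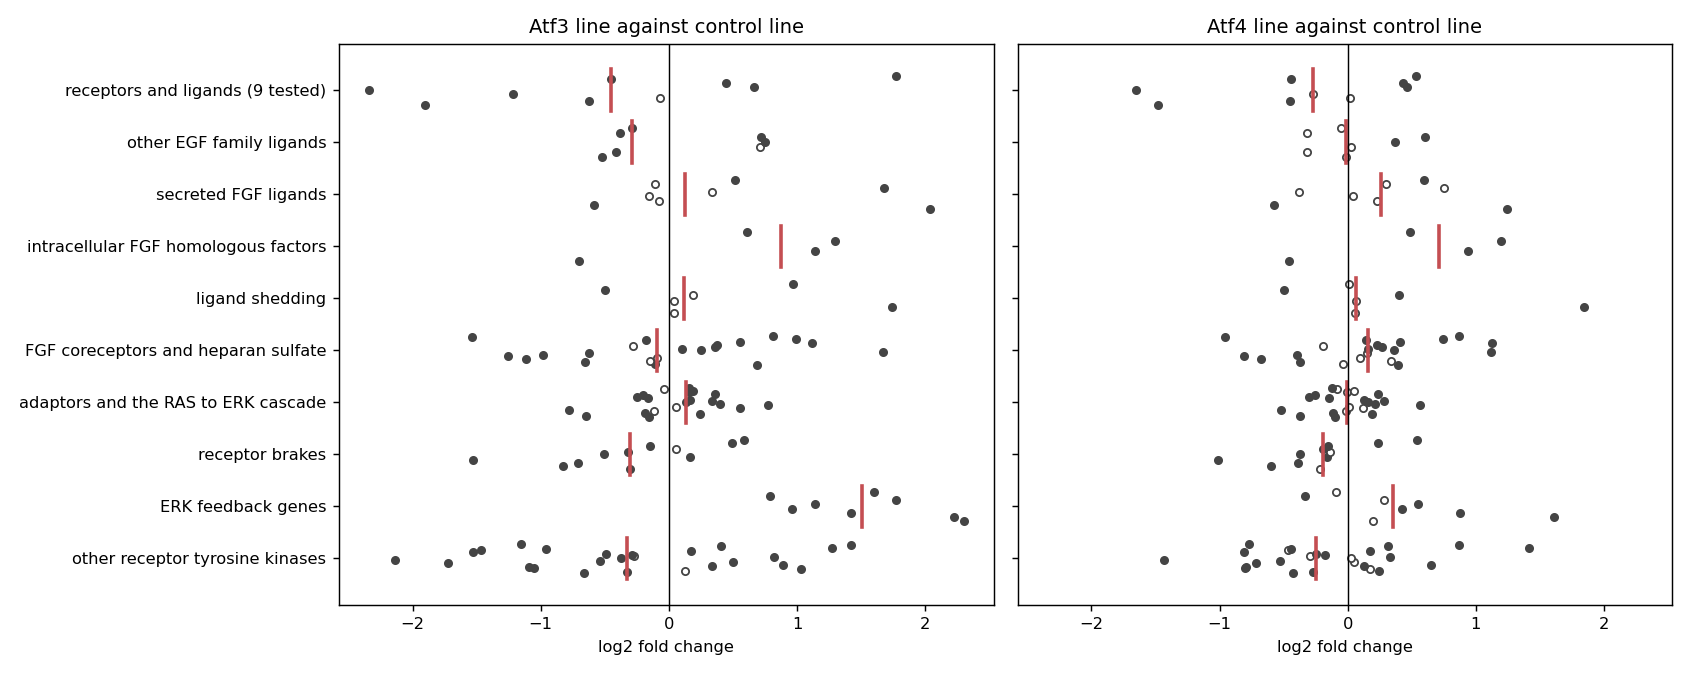
Log2 fold change (x axis, shared scale) of each tested gene in the receptor and ligand set and 9 further lists, in Atf3 cells (left) and Atf4 cells (right) against control cells, with filled points for an edgeR adjusted p under 0.05, open points otherwise and a red bar at the list median. The ERK feedback genes have the highest median in Atf3 cells, 1.51, and all 8 are right of 0 there.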

How the data were processed

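RNA of 15 neural precursor cell samples was sequenced as read pairs of 150 bases on an Illumina NovaSeq after NEBNext Ultra library preparation, per the labels' protocols. The values the authors deposited are unnormalized counts, 1 whole number per gene and sample. The submitters' processing notes name STAR, edgeR and mm10. Which program counted the reads, with which annotation and strand setting, is not given in the sources used. Group and replicate number were read from the titles. Symbols, positions and exon lengths came from GENCODE M21 (GRCm38), and 52135 of 55416 identifiers received a symbol.

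The analysis used R 4.3.3 and edgeR 4.0.16 with TMM scaling and filterByExpr (18244 of 35525 genes with any count). One quasi-likelihood fit covered all 15 libraries, with Benjamini-Hochberg adjustment over all tested genes and calls at 0.05. The scripts were tested on simulated data. Chi-square per degree of freedom between libraries of 1 line was 5.47 to 53.4, above sampling noise, so all were kept as separate. Alternatives were DESeq2 1.42.0, limma-voom (limma 3.58.1), RLE scaling, other filters, fits of 2 lines, a replicate block and leaving out libraries.

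The 10 genes and the pathway lists were chosen with earlier results of these data known. From each list up to 2 called genes with the largest rise and up to 2 with the largest fall per line and a mean of at least 1 CPM were named, with Atf3, Atf4 and the 2 genes most like each tested receptor or ligand gene, of which 1 is not reported here. Fgf2, Adam10, Adam17, Errfi1 and the single markers given (Prom1, Sox10, Gpr17, Mbp, Olig1, Olig2, Pou3f1, Stmn2, Cldn5, Pecam1, Aif1, Cx3cr1, Csf1r) fall outside this rule and were chosen after their values were seen.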

Additional observations from a re-analysis of the deposited data

Results flagged for a closer look

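In a group of 5 libraries a value was singled out when its gap to the nearest library exceeded 0.71 of the group's range, which chance gives in about 1 of 20 groups. None of the 30 groups of the 10 receptor and ligand genes met this, and 7 of 105 groups of the other named genes did. In Atf4 replicate 5 Dusp6 stood at 217.1 CPM, with 58.9 to 97.3 CPM in the other Atf4 libraries, and Spry2 at 131.7 CPM, with 90.7 to 102 CPM in the others. In Atf3 replicate 4 Gpc4 stood at 175.9 CPM, with 147 to 153 CPM in the others. Among control libraries Nrg1 was at 1.483 CPM in replicate 4 (0.899 to 1.04 CPM in the others), and Adam12 was at 154.4 CPM in replicate 3 (128 to 135 CPM). Control replicate 5 had 38.2 CPM of Hras (33.1 to 34.1 CPM in the others) and 46.25 CPM of Braf (53.8 to 55.9 CPM).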

How the results depend on the processing

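The counts of called receptor and ligand genes and of all called genes stayed within 1.5 times their reported values under each alternative run. Of 618 recomputed log2 fold changes of the 9 tested genes, 603 kept their side of the threshold, 3 (Egfr, Atf4 against Atf3) lost the call and 12 (all Erbb2) gained one. Of the 603, 587 also kept their sign and 16, all uncalled and near 0, did not: these were in Erbb2 for Atf4 against control (-0.02 to 0.04) and, for Atf4 against Atf3, in Fgfr3 and Fgfr2. Replicate numbers did not pair the libraries: deviations of same-numbered libraries correlated at -0.0791 to 0.0985 over 15 pairs. With the replicate number as a block (replicate block), 13132, 10968 and 7589 genes were called in Atf3 against control, Atf4 against control and Atf4 against Atf3, in place of 13351, 11246 and 7958, and no call of the 9 genes changed. Leaving out control replicates 4 and 5, chosen after seeing the data for their higher Atf3, gave 12892, 10391 and 7791. Of 1242 recomputed counts in the other lists 57 moved by over 1.5 times, and of 2553 recomputed changes of other named genes 21 lost and 8 gained a call. Erbb3 and Fgfr4 have no value under the filter of 1 CPM in 5 libraries. At most 38 counts of Erbb3 and 14 of Fgfr4 per library limit what can be said of their size. Dividing by the longest transcript moved 18 of 30 per-length levels by more than their SD. Plain CPM, with no division by length, moved 23 of 24 receptor shares by more than their SD.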

Other observations

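Of 27 other receptor tyrosine kinase genes 25 were tested, and 9 were higher and 14 lower in Atf3 cells (median -0.32), beside 36.8% and 36.3% of all tested genes. In Atf4 cells 8 were higher and 12 lower (median -0.25), beside 31.9% and 29.7% of all tested genes. Kdr, a VEGF receptor gene, was at 10.1 ± 1.29 CPM in Atf3 cells, 16.4 ± 1.60 CPM in Atf4 cells and 44.3 ± 1.74 CPM in control cells. It makes up most of the summed level of the 5 endothelial markers, which was 12.4 to 18.5 CPM in Atf3 cells, 18.4 to 21.5 CPM in Atf4 cells and 44.8 to 49.1 CPM in control cells. The 3 tested endothelial markers were Kdr itself, Tek and Pecam1. In Atf3 cells 1 was higher (Tek) and 2 lower (Kdr and Pecam1). In Atf4 cells 1 was higher (Tek) and 1 lower (Kdr). These counts stand beside the same shares of all tested genes. Pecam1 was at 0.0985 ± 0.0384 CPM in Atf3 cells, 0.175 ± 0.0532 CPM in Atf4 cells and 0.171 ± 0.0299 CPM in control cells, and Cldn5 was under 0.1 CPM in every line. The part of the other endothelial markers in the fall of Kdr was not tested. Flt4, another VEGF receptor gene, fell in Atf3 cells (-1.72 ± 0.16 SE), and Pdgfra, the PDGF receptor gene of oligodendrocyte precursors, was at 1.65 ± 0.233, 2.73 ± 0.658 and 4.78 ± 0.496 CPM in Atf3, Atf4 and control cells. Ror2, a Wnt5a receptor gene, rose in both lines (1.28 ± 0.08 SE and 1.41 ± 0.08 SE), and so did the angiopoietin receptor gene Tek (1.42 ± 0.17 SE and 0.87 ± 0.17 SE).

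The intracellular FGF homologous factors, which modulate sodium channels and do not act as FGF receptor ligands in the classical way, were called in both lines, 3 higher and 1 lower of 4, beside 73.2% of all tested genes called in Atf3 cells and 61.6% in Atf4 cells. Fgf13 was at 5.04 ± 0.379 CPM in Atf3 cells, 4.68 ± 0.352 CPM in Atf4 cells and 2.05 ± 0.106 CPM in control cells. Fgf12 was at 15.6 ± 0.810, 13.6 ± 1.84 and 7.07 ± 0.736 CPM in that order, and Fgf11 fell (-0.70 ± 0.06 SE and -0.46 ± 0.06 SE).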
